A study of Mus musculus with 24 samples.

Results

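The 32 genes described here encode enzymes and regulators of cholesterol and fatty acid synthesis. They were taken by gene symbol from a list of 32 names, and all of them were among the 24421 genes of the count table. They were split by role into 16 sterol enzymes, 5 genes for regulation and sterol transport, and 11 fatty acid enzymes. After the filter on low counts 31 of them were tested among 12850 genes. Me1, which encodes the cytosolic malic enzyme, did not pass it. The list was chosen with earlier results of these data known, so its shares set beside all genes are descriptive only.

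RNA was sequenced from B cells of the bone marrow of 8 mice. All of them were MB1 Cre +/WT, that is, they carried 1 copy of a Cre recombinase driven from the Mb1 (Cd79a) locus, which is active in B lineage cells. In 4 mice both Vhl alleles were floxed (VHL flox/flox), called knockout below for their genotype. The 4 control mice had 1 floxed and 1 wild-type allele (VHL flox/WT), so that the controls shared the recombinase and a floxed Vhl allele. Each mouse gave 1 library of proBpreB cells, 1 of immature and 1 of mature B cells, which made 6 groups of 4 libraries. The labels used here give no age of the mice and no surface markers of the sort gates.

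Cholesterol is built from acetyl-CoA through mevalonate, isoprenoid and squalene intermediates, and fatty acids are built by Acaca and Fasn from acetyl-CoA that Acly and Acss2 supply, before elongases and desaturases modify them. Genes of both pathways are known targets of the SREBP transcription factors, which Scap carries out of the endoplasmic reticulum when sterols are low and which Insig1 holds back. Vhl is part of a ubiquitin ligase that marks hypoxia-inducible factor for degradation, and lymphoid precursors that divide need lipids for new membrane.

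Totals ran from 7850186 to 11863949 counts per library, which puts 3 counts, taken here as the limit of detection, at 0.253 to 0.382 CPM, the unit that states a count as a share of the library's total. The targeted gene was lower in every knockout library than in any control library of the same population. Vhl in knockout cells was at 40.1% of the control mean in proBpreB cells, at 15.7% in immature cells and at 26.1% in mature cells (two-sided exact permutation test, p = 0.0286 in each, the smallest that 70 assignments allow). Markers of the labelled stage were present: 7 pro-B and pre-B genes summed to 1471 to 2872 CPM in proBpreB libraries and to 29.3 to 80.7 CPM in the other libraries. Of 6 adipocyte markers, Plin1, Cidec and Lep had 0 counts in all 24 libraries and the 6 summed to at most 6.38 CPM. Below, levels are CPM scaled by TMM, given as mean ± SD over 4 mice, and a gene is called changed where the adjusted p of edgeR's quasi-likelihood test over all genes tested was under 0.05.

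Between genes, levels were compared per kb of exonic sequence. In control proBpreB cells the highest was Acly at 63.6 CPM per kb, followed by Acat2 at 32.6 CPM per kb and Scd2 at 27.8 CPM per kb. In control immature cells Scd1 was the highest at 218.5 CPM per kb, with Acly second at 86.9 CPM per kb, and in control mature cells Scd1 again led at 204.8 CPM per kb. The lowest was Me1 in each of these groups. It had 1 count in the 4 control proBpreB libraries together and 16 in the 4 control immature libraries, so no fold change is given for it.

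The sterol enzymes were most often called between genotypes in immature B cells, and so were all genes tested. Of all genes 20.7% were called there, against 16.3% for mature and 6.13% for proBpreB cells. Of the 16 sterol enzymes, 4 were lower in knockout than in control immature libraries and 0 were higher. The 4 were Sqle, Idi1, Cyp51 and Hmgcs1. Over all 31 members, 6 were lower and 1 was higher, against 10.5% of all genes tested that were lower and 10.2% that were higher, 20.7% in either direction. The median log2 difference of the sterol enzymes was -0.33, with 14 of 16 below 0, beside a median of 0.003 and 49.6% below 0 for all genes tested. The summed level of the 16 genes was 357 to 399 CPM in knockout and 475 to 529 CPM in control immature libraries, with no overlap. In bulk libraries, fewer cells of a type and less RNA per cell cannot be told apart.

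Sqle, squalene epoxidase, which makes the first oxygenated intermediate of the sterol branch, had the largest fall. Its levels in control immature libraries were 14.3, 19.8, 23.6 and 20.9 CPM for replicates 1 to 4, and in knockout immature libraries 6.66, 3.77, 7.15 and 4.14 CPM. Every knockout library was below every control library, and the knockout mean of 5.43 ± 1.72 CPM was 27.6% of the control mean of 19.7 ± 3.94 CPM. The log2 difference was -1.85 (SE 0.22, adjusted p = 2.1e-07).

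Idi1, isopentenyl-diphosphate isomerase, which interconverts the building blocks of all isoprenoids, was at 39.3, 39.0, 37.5 and 31.6 CPM in the control immature libraries. In the knockout immature libraries it was at 13.1, 14.8, 15.3 and 17.7 CPM. The groups did not overlap, and the knockout mean was 41.2% of the control mean (log2 difference -1.27, SE 0.16, adjusted p = 7.64e-07). Of the 50-base stretches of Idi1 transcripts, 28.6% also occur in transcripts of other annotated genes, led by Gm13502, so its counts may include or miss reads of these.

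Cyp51, lanosterol 14-demethylase, was at 52.3, 47.9, 52.7 and 46.3 CPM in control immature libraries and at 19.1, 22.6, 24.0 and 26.6 CPM in knockout ones. Again no knockout library reached a control library. The knockout mean was 46.3% of the control mean (log2 difference -1.11, SE 0.16, adjusted p = 3.6e-06). The calls on Sqle, Idi1 and Cyp51 held under each of the 17 alternatives run for them.

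Hmgcs1, the synthase that makes HMG-CoA at the head of the mevalonate pathway, had the smallest change of the 4. It was at 49.1, 55.9, 56.0 and 52.1 CPM in control and at 43.4, 34.6, 39.7 and 46.7 CPM in knockout immature libraries. These ranges did not overlap, and the log2 difference was -0.37 (SE 0.14, adjusted p = 0.0481). The call was lost without control replicate 2, 3 or 4 (adjusted p = 0.0954, 0.107 and 0.0752) and without knockout replicate 1, 2 or 3 (adjusted p = 0.0601, 0.161 and 0.0959). It was also lost without a filter on low counts (0.0539), with a filter of 10 CPM (0.0545), in limma-voom (0.0512) and in mice with Xist counts alone (0.055), 10 of the 17 alternatives in all. An antisense gene, Gm48342, shares 12.6% of its 50-base stretches.

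Just short of the threshold in immature cells were Acat2, which condenses acetyl-CoA units, and Mvk, mevalonate kinase. Acat2 averaged 50.3 ± 10.9 CPM in knockout and 66.5 ± 11.7 CPM in control libraries (log2 difference -0.40, adjusted p = 0.0509). It passed in DESeq2 (adjusted p = 0.0427), in limma-voom (0.0428), with sex as a covariate (0.00811), in mice with Xist counts alone (0.0239), and without control replicate 2 or 3 (0.0491 and 0.0455) or knockout replicate 1 (0.0086). With a block on replicate numbers, which the labels do not give as pairs of mice, its adjusted p was 0.00548. Its transcripts share 40.7% of their 50-base stretches with Acat3. Mvk averaged 3.57 ± 0.482 and 6.12 ± 1.73 CPM (log2 difference -0.78, adjusted p = 0.0524), and Mvk passed in DESeq2 (0.0421) and without control replicate 2 (0.028). The other 10 sterol enzymes did not pass either, and Lss and Sc5d were the members of this group with a log2 difference above 0.

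**Figure D1:**
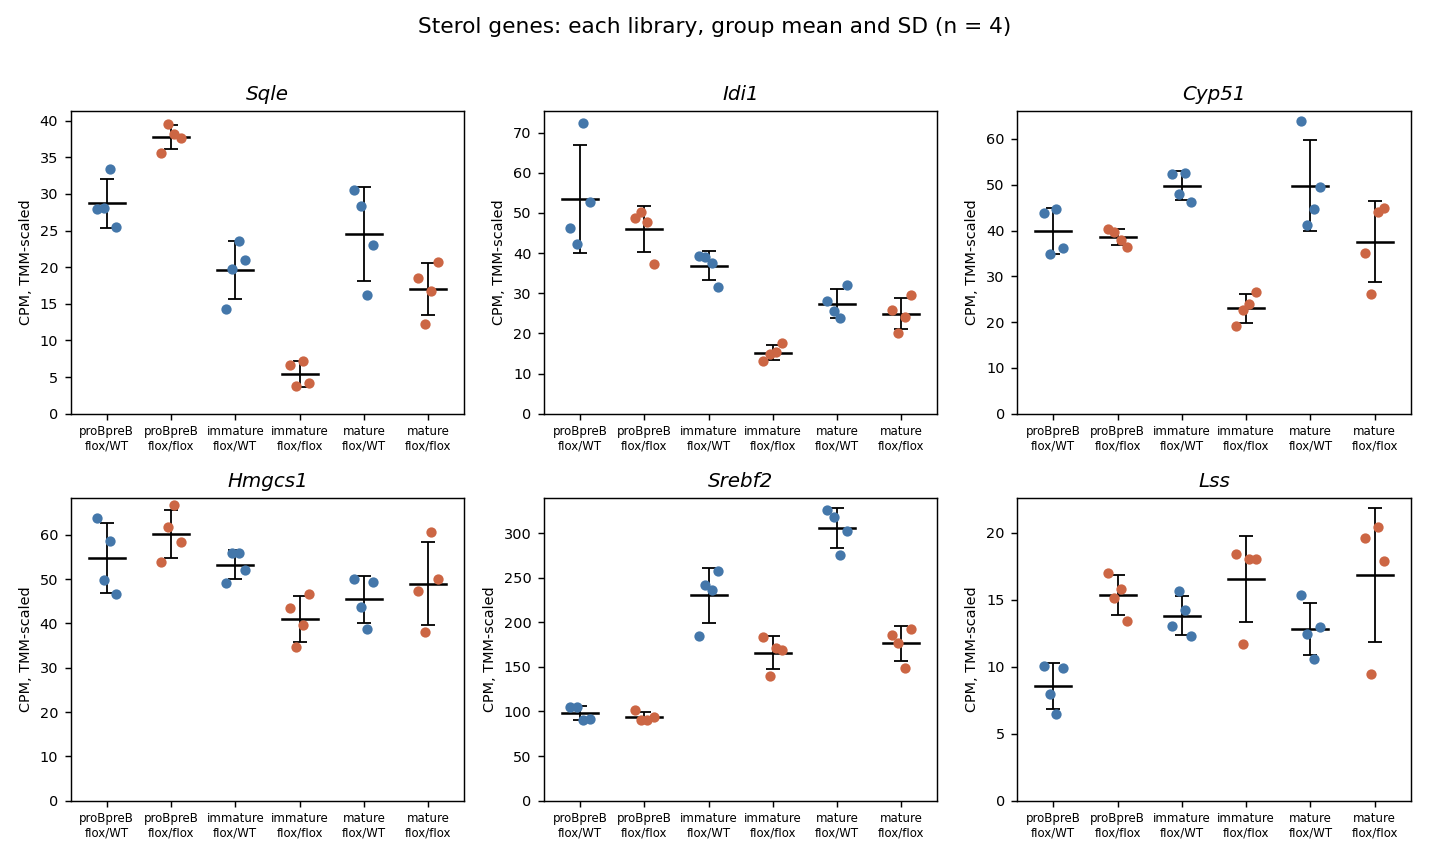
Levels (TMM-scaled CPM, vertical axis) of sterol pathway genes by population and genotype (knockout is flox/flox, control is flox/WT); points are libraries and bars are means ± SD over 4 mice. In immature cells the 4 knockout points of Sqle lie between 3.77 and 7.15 CPM, below the 4 control points between 14.3 and 23.6 CPM.

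Promoters of genes called lower in knockout immature cells are shown where RefSeq (GRCm38.p6) gave one, which it did not for Sqle and Fads1. The stretches are the 250 bases before the annotated start, 5′ to 3′ on the gene's strand. They belong to Hmgcs1 at chr13:119690101-119690350 (plus strand), Idi1 at chr13:8885356-8885605 (plus strand), Cyp51 at chr5:4104698-4104947 (minus strand) and Srebf2 at chr15:82147019-82147268 (plus strand). Capitals mark each match to TCACNCCAC, a form of the sterol regulatory element, to CACGTG, to ACGTG, the core of the hypoxia response element, or to CCAAT, on either strand.
Hmgcs1: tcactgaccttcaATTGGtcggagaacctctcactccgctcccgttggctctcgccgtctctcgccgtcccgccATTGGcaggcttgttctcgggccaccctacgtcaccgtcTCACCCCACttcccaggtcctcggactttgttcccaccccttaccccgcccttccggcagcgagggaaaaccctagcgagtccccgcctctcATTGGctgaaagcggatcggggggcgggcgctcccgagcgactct
Idi1: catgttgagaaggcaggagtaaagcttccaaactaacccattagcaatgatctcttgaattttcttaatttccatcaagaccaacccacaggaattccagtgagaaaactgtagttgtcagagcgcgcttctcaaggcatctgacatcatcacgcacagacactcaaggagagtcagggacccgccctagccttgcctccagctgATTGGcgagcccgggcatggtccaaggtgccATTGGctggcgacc
Cyp51: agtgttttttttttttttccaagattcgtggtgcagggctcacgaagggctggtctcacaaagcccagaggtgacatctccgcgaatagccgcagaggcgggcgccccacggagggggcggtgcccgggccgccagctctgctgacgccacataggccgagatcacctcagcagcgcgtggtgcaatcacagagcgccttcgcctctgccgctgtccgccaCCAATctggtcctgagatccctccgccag
Srebf2: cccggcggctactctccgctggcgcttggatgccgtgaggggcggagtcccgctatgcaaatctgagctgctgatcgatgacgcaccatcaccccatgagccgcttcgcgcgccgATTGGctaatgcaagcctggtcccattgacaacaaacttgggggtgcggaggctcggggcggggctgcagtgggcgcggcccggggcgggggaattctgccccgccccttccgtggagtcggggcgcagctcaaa
The sterol element form was found once, in Hmgcs1, 137 bases before the start. Of the letter strings searched, only CCAAT, which is ATTGG on the other strand, matched in the other 3 stretches. Other forms of the sterol element were not searched for.

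Promoter windows, which ran from before each start to 50 bases after it, were matched for 25 of the 32 members, some of which have more than 1 start, 32 windows in all. Counted by window, 1 of the 32 held TCACNCCAC (3.12%), 7 held CACGTG (21.9%), 10 held ACGTG, which lies inside CACGTG (31.2%), and 21 held CCAAT (65.6%). Of all 32851 promoter windows of this length, 1.24% held TCACNCCAC, 7.15% CACGTG, 19.6% ACGTG and 37.4% CCAAT. Windows of 1 gene can overlap. The genes with ACGTG were Acly, Dhcr7, Elovl5, Elovl6, Hsd17b7, Insig1, Me1, Sc5d and Scap. These are letter matches in short windows and say nothing of binding.

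In proBpreB cells 1 of the 16 sterol enzymes changed with genotype. It was Lss, lanosterol synthase, which closes the sterol rings, at 10.0, 7.93, 6.45 and 9.89 CPM in control and at 17.0, 15.1, 15.8 and 13.4 CPM in knockout libraries. All knockout values were above all control values, and the knockout mean was 1.79-fold higher (log2 difference 0.84, SE 0.21, adjusted p = 0.0106). Over all 31 members 1 was higher and 1 lower in proBpreB cells, and the background was 3.38% higher and 2.75% lower, or 6.13% in all. Without control replicate 1 or 3 the number of members called rose to 4 in each case. Sqle was at 27.9, 28.1, 33.4 and 25.5 CPM in control and at 35.6, 39.6, 38.1 and 37.6 CPM in knockout proBpreB libraries, without overlap but also without a call (log2 difference 0.39, adjusted p = 0.266).

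In mature cells 0 of the 16 sterol enzymes passed edgeR's test, although 4 had an unadjusted p under 0.05. Of all genes, 9.69% were called higher and 6.62% lower there, 16.3% in all. The median log2 difference of the sterol enzymes was -0.22, with 12 of 16 below 0, beside a median of 0.007 for all genes. Nearest to the threshold came Mvd, mevalonate diphosphate decarboxylase (log2 difference -0.51, adjusted p = 0.0519), Cyp51 (-0.41, adjusted p = 0.0625), Sqle (-0.53, adjusted p = 0.0676) and Mvk (-0.74, adjusted p = 0.0805). Sqle was at 30.5, 28.3, 16.2 and 23.0 CPM in control and at 18.5, 12.3, 16.7 and 20.7 CPM in knockout mature libraries, and these ranges overlapped. Sqle passed without control replicate 3 (adjusted p = 0.0201) or knockout replicate 4 (adjusted p = 0.0449). Cyp51 passed without control replicate 2 (adjusted p = 0.0359) or knockout replicate 3 or 4 (adjusted p = 0.041 and 0.0328). Without knockout replicate 2 Lss was called higher (adjusted p = 0.0295), and without knockout replicate 4 Mvk was called lower (adjusted p = 0.0158). Of the 16, Mvd passed in DESeq2 (adjusted p = 0.0385) and with sex as a covariate (0.0463), and Cyp51 passed in limma-voom (adjusted p = 0.0482).

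The genotype effect itself differed between populations for 3 sterol enzymes. From proBpreB to immature cells it shifted by -2.25 on the log2 scale for Sqle (SE 0.29, adjusted p = 7.78e-06), by -1.06 for Idi1 (adjusted p = 0.00181) and by -1.06 for Cyp51 (adjusted p = 0.00143). These were the 3 members called lower in that comparison, against 6.14% of all genes, and with 1 member higher the background in either direction was 10.9%. From immature to mature cells it shifted back, by 1.33 for Sqle (SE 0.29, adjusted p = 0.00348), by 1.13 for Idi1 (SE 0.23, adjusted p = 0.00119) and by 0.70 for Cyp51 (adjusted p = 0.0422). In that comparison 5 of 31 members were called higher, against 5.51% of all genes, and 0 lower, against 2.23%, with 7.74% called in either direction. The 2 shifts of a gene share the immature libraries. The extent of Vhl loss also differed by population. Knockout libraries kept 15.7% of the control mean when immature, 26.1% when mature and 40.1% at the proBpreB stage. The part of this unequal loss in the shifts of any member, Srebf2 and Scd1 included, was not tested.

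The Cyp51 shift from immature to mature cells was the least firm of these. It missed the threshold without immature control replicate 1, 3 or 4 (adjusted p = 0.0613, 0.0838 and 0.0503), immature knockout replicate 1, 2 or 3 (0.0994, 0.0735 and 0.0556), mature control replicate 2, 3 or 4 (0.0894, 0.0889 and 0.0658) and mature knockout replicate 3 or 4 (0.0992 and 0.104), as well as with only the groups compared in the fit (0.0858). The count of 5 members fell to 3 without immature control replicate 3 or 4, mature control replicate 2, 3 or 4, or immature knockout replicate 1, 2 or 3. The shifts of Sqle and Idi1 passed in every alternative run.

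**Figure D2:**
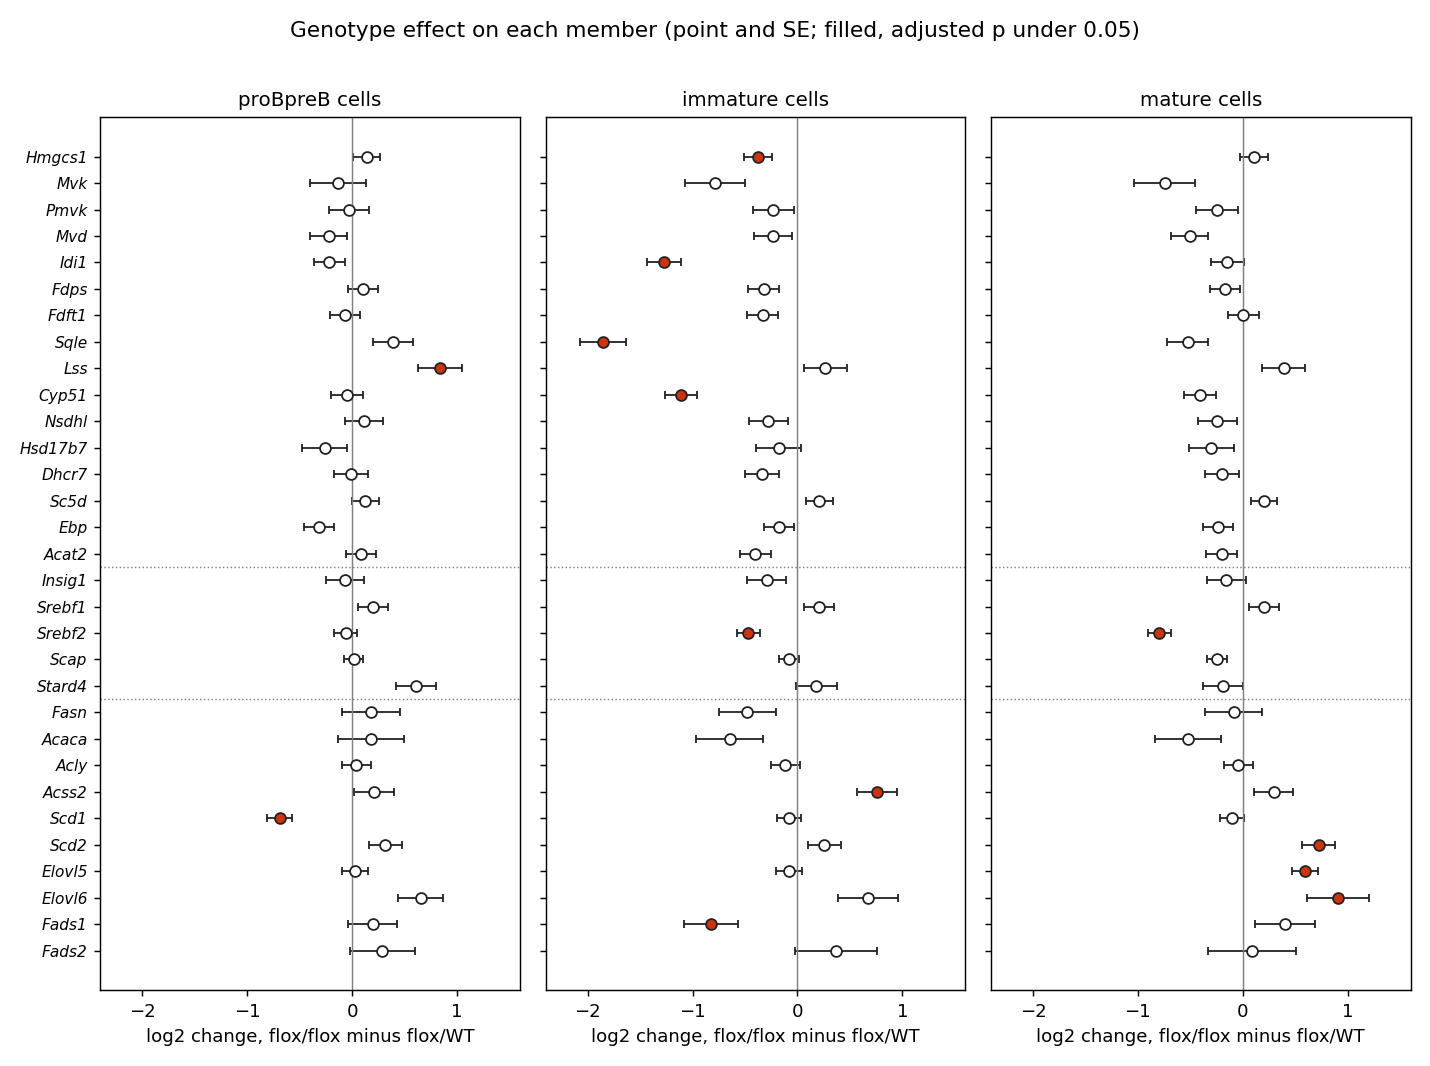
Log2 difference between knockout and control (horizontal axis) for each tested member in the 3 populations; bars are standard errors, filled points have an adjusted p under 0.05, and dotted lines part sterol enzymes, regulators and fatty acid enzymes. The points farthest to the left are Sqle at -1.85, Idi1 at -1.27 and Cyp51 at -1.11, all in immature cells.

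Between stages, the sterol enzymes of control mice moved in both directions at the proBpreB to immature step, with 5 of 16 higher and 2 lower in immature cells. Over all 31 members 12 were higher and 7 lower, and the background was 24.0% higher and 25.4% lower, or 49.4% in all. Ebp, a sterol isomerase, rose from 40.7, 40.4, 41.6 and 39.1 CPM to 73.8, 52.2, 51.8 and 58.1 CPM (log2 change 0.54, SE 0.14, adjusted p = 0.0023). Idi1 fell from 46.4, 42.3, 72.5 and 52.7 CPM in proBpreB cells, where replicate 3 was the highest, to the immature values given above (log2 change -0.54, adjusted p = 0.00439). Lss rose by 0.68 (adjusted p = 0.00755), and all its immature libraries, at 12.3 to 15.6 CPM, exceeded those of proBpreB cells.

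Several smaller changes at this step lost their call when 1 of several libraries was left out. The fall of Sqle by 0.54 (adjusted p = 0.0215) was lost without proBpreB replicate 3 or immature replicate 1 (adjusted p = 0.073 and 0.0859). The rise of the reductase Dhcr7 (0.43, adjusted p = 0.026) was lost without proBpreB replicate 4 or immature replicate 2 or 4 (adjusted p = 0.0623, 0.0765 and 0.0584). The rise of Nsdhl, which acts in sterol demethylation (0.48, adjusted p = 0.0306), was lost without any one of proBpreB replicates 1, 2 and 4 (adjusted p = 0.0573, 0.0518 and 0.106) and immature replicates 1, 2 and 4 (adjusted p = 0.0583, 0.0797 and 0.0545). The rise of Mvd (0.44, adjusted p = 0.0376) was lost without proBpreB replicate 1 or 2 (adjusted p = 0.122 and 0.051) or immature replicate 2 or 3 (adjusted p = 0.148 and 0.0604), with DESeq2 size factors in edgeR (0.0594), without a filter (0.0641), with a filter of 10 CPM (0.0541) and with only the groups compared (0.0635).

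At the same step in knockout mice 8 of 16 sterol enzymes fell and 2 rose, and over all 31 members 14 were lower and 7 higher, with a background of 27.2% lower and 28.7% higher, or 55.9% in all. The 8 that fell were Sqle, Idi1, Acat2, Cyp51, Fdps, Hmgcs1, Mvk and Fdft1. Sqle fell 6.95-fold from 37.7 ± 1.63 CPM (log2 change -2.79, SE 0.22, adjusted p = 1.17e-11), and Idi1 fell 3.03-fold from 46.0 ± 5.82 CPM (log2 change -1.60, adjusted p = 2.06e-09). Cyp51 fell from 40.3, 39.6, 37.9 and 36.4 CPM (log2 change -0.74, adjusted p = 0.000201), while in control mice, with 43.8, 34.9, 44.8 and 36.2 CPM in proBpreB cells, its change of 0.32 did not pass (adjusted p = 0.0775). The differences of genotype effects given above are the test of this contrast for Sqle, Idi1 and Cyp51.

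Of the rest, Acat2 fell by 0.80 on the log2 scale (adjusted p = 3.71e-05), Fdps, farnesyl diphosphate synthase, by 0.69 (adjusted p = 0.000222), Hmgcs1 by 0.55 (adjusted p = 0.00102) and Mvk by 1.11 (adjusted p = 0.00171). For these genes and Fdft1 the shift of the genotype effect at this step was not called in the main fit. Acat2 was not called at this step in control mice. It passed there in DESeq2 (log2 change -0.36, adjusted p = 0.0423), in limma-voom (-0.33, adjusted p = 0.0295) and without immature replicate 1 (adjusted p = 0.014). Fdps shares 64.1% of its 50-base stretches with other genes, chiefly Gm43738, so its counts are uncertain. The change of Fdft1, squalene synthase (-0.40, adjusted p = 0.0225), was lost without proBpreB replicate 2 or 4 or immature replicate 3 (adjusted p = 0.0507, 0.0523 and 0.065), and Ctsb overlaps it on the opposite strand. Ebp rose in knockout mice too (0.69, adjusted p = 0.000218). The rise of Mvd (0.43, adjusted p = 0.0419) was lost without proBpreB replicate 2, 3 or 4 (adjusted p = 0.0569, 0.0757 and 0.154) or immature replicate 1 or 2 (adjusted p = 0.0546 and 0.203), with DESeq2 size factors in edgeR (0.06), without a filter (0.0782), with a filter of 10 CPM (0.0554), with only the groups compared (0.0832) and in DESeq2 (0.054).

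At the immature to mature step in knockout mice 3 of 16 sterol enzymes rose and 0 fell. Over all 31 members 4 were higher and 1 lower, and the background was 12.9% higher and 13.6% lower, or 26.5% in all. Sqle rose 3.14-fold to 17.0 ± 3.56 CPM (log2 change 1.64, SE 0.22, adjusted p = 1.23e-06). Idi1 rose to 25.8, 20.1, 24.1 and 29.5 CPM (log2 change 0.71, adjusted p = 0.0015) and Cyp51 to 35.1, 26.1, 44.1 and 44.9 CPM (log2 change 0.70, adjusted p = 0.00101). All 4 mature values of Idi1 were above its immature values, whereas the lowest mature value of Cyp51 lay within its immature range.

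In control mice the same step changed 1 of 16 sterol enzymes. Over all 31 members 2 were higher and 3 lower, with a background of 15.6% higher and 17.1% lower, or 32.7% in all. Idi1 fell to 28.1, 25.7, 23.8 and 32.2 CPM, and 1 of these overlapped the immature range (log2 change -0.42, adjusted p = 0.0368). With the mouse as a replicate block its adjusted p was 0.0542, and the call was also lost without immature replicate 1, 2 or 3 (0.0799, 0.0786 and 0.069) or mature replicate 1, 2 or 3 (0.0558, 0.0843 and 0.114). The other sterol enzymes not named in the stage comparisons were Pmvk, Hsd17b7 and Sc5d, which passed in none of the 4 steps.

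In immature cells genes of cell division also differed between genotypes. A list of 20 proliferation genes summed to 860 to 1203 CPM in knockout and to 2708 to 3493 CPM in control immature libraries, and all 20 were called lower (median log2 difference -1.68). In proBpreB cells 0 of the 20 were called, with summed levels of 4877 to 6947 CPM in control and 5681 to 6942 CPM in knockout libraries. In mature cells the direction was the other, with 14 of 20 higher and summed levels of 898.5 to 1279 CPM in knockout against 514 to 941 CPM in control libraries. Their part in the sterol enzyme results was not tested.

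Markers of other cells also differed between the immature groups. A list of 8 neutrophil and monocyte genes summed to 11540 to 15460 CPM in knockout and to 7855 to 9273 CPM in control immature libraries, with 3 of 8 called higher, 0 lower and none of the 8 at 0 counts. In mature libraries these sums overlapped, at 12250 to 19910 CPM in knockout and 11140 to 17440 CPM in control mice. A list of 6 mature B cell genes summed to 6094 to 6657 CPM in knockout and to 6757 to 8746 CPM in control immature libraries, with 4 of 6 called lower. Erythroid genes summed to 352 to 476.5 CPM against 212 to 231 CPM, with 3 of 7 called higher, and none of these lists held a gene at 0 counts. Of 4 plasma cell genes 3 were called lower and 1 higher in knockout immature libraries. Their sums overlapped, at 433 to 543 CPM in knockout and 335 to 504 CPM in control immature libraries. In mature libraries, where Srebf2, Scd2 and Elovl5 were called, the mature B cell genes summed to 9189 to 10290 CPM in knockout and 12100 to 13610 CPM in control mice, with 1 of 6 called lower. There 4 B lineage genes summed to 2631 to 2864 against 3431 to 3993 CPM, with 1 of 4 called lower, and the erythroid genes to 309 to 639 against 151 to 347.5 CPM, with 3 of 7 called higher. Lss and Scd1 were called in proBpreB libraries. There the 4 B lineage genes summed to 1570 to 1648 CPM in knockout and 2214 to 2459 CPM in control mice. Of these genes 2 were called lower and 0 higher. Between stages these lists moved as well. In control mice the mean neutrophil and monocyte sum rose from 4896 CPM (proBpreB) to 8688 CPM (immature) and 13710 CPM (mature). The proliferation sum fell from 5996 to 3113 and then 718 CPM. Knockout means over the same stages were 4562, 13030 and 17400 CPM for the first list and 6144, 1031 and 1118 CPM for the second. At the proBpreB to immature step 6 of 6 natural killer genes were called lower in both genotypes. Their mean sum fell from 137 to 18.7 CPM in control and from 185 to 30.0 CPM in knockout mice. Of 4 plasmacytoid dendritic genes 3 were called lower and 0 higher at this step in each genotype. The part of these cells, markers and proliferation genes in the member results, between genotypes or between stages, was not tested.

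Of the 5 regulators, Srebf2, which encodes the SREBP that chiefly drives sterol genes, changed with genotype and did so in 2 populations. In control mice it was at 105, 104, 90.8 and 91.2 CPM in proBpreB cells, at 185, 242, 236 and 257 CPM in immature cells and at 326, 318, 275 and 302 CPM in mature cells. The knockout libraries were at 101, 89.9, 90.4 and 93.9 CPM, then at 184, 140.1, 171 and 169 CPM, then at 186, 177, 149 and 192 CPM. Every library of a later stage was thus above every library of an earlier one in control mice, while in knockout mice the immature and mature ranges overlapped.

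Between genotypes, Srebf2 was lower in knockout immature cells, at 72.2% of the control mean (log2 difference -0.47, SE 0.11, adjusted p = 0.00243), and in knockout mature cells, at 57.6% (log2 difference -0.79, SE 0.11, adjusted p = 4.76e-06). The groups did not overlap in either population. In proBpreB cells the log2 difference was -0.06, with a 95% interval of -0.295 to 0.172 (adjusted p = 0.831). The genotype effect differed between mature and proBpreB cells by -0.73 (SE 0.16, adjusted p = 0.00561), and Srebf2 was the member called lower there, against 0.786% of all genes and 3.06% in either direction. All these calls held in every alternative run. Its transcripts shared 0 of their 50-base stretches with other genes.

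Between stages, Srebf2 rose 2.35-fold from proBpreB to immature cells in control mice (log2 change 1.23, adjusted p = 3.44e-10) and again by 0.41 from immature to mature cells (adjusted p = 0.00453). In knockout mice the first rise was 1.77-fold (log2 change 0.82, adjusted p = 4.11e-07) and the second step did not pass. Scap, the escort of SREBP, fell at the first step from 124.5, 138, 132.5 and 123 CPM to 74.6, 93.5, 84.9 and 93.5 CPM in control mice (log2 change -0.58, SE 0.09, adjusted p = 8.76e-06). For knockout mice the fall was from 131 ± 5.97 to 82.1 ± 2.15 CPM (log2 change -0.67, adjusted p = 7.43e-07). Between genotypes Scap did not pass, and the nearest was mature cells at 69.0 ± 4.32 against 81.8 ± 7.39 CPM (log2 difference -0.25, adjusted p = 0.0768). It passed there without control replicate 2 (adjusted p = 0.0362) and in DESeq2 (adjusted p = 0.0457).

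Insig1, the sterol-sensing retention factor, fell at the first step in both genotypes, by 0.63 on the log2 scale in control (adjusted p = 0.00521) and by 0.86 in knockout mice (adjusted p = 0.000308). In control libraries it went from 24.2, 30.7, 33.4 and 34.6 CPM to 15.7, 23.2, 16.15 and 24.3 CPM, with a slight overlap. The knockout values went from 21.5, 36.9, 28.7 and 30.4 CPM to 17.2, 17.4, 12.9 and 17.3 CPM, with none. Genotype differences of Insig1 lay between -0.29 and -0.07 and did not pass.

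Srebf1, which encodes the SREBP forms tied to fatty acid genes, had log2 genotype differences of 0.20 in each of the 3 populations, and none of them passed (adjusted p = 0.493, 0.347 and 0.374). Its control levels were 74.2, 75.0, 68.9 and 69.0 CPM in proBpreB cells, then 88.0, 90.2, 85.3 and 108 CPM in immature cells, then 96.7, 61.1, 86.5 and 81.7 CPM in mature cells. Its knockout levels were 87.2, 88.8, 72.8 and 81.6 CPM, then 103, 99.8, 104 and 122 CPM, then 84.1, 127, 67.0 and 96.8 CPM. The rise at the first step was small in both genotypes. In control mice it was 0.37 (adjusted p = 0.0337), lost without proBpreB replicate 3 or 4 or immature replicate 4 (adjusted p = 0.0721, 0.0725 and 0.126), with DESeq2 size factors in edgeR (0.0556) and in DESeq2 (0.0624). The knockout rise was 0.37 (adjusted p = 0.0293), lost without the same 3 replicate numbers (adjusted p = 0.0919, 0.0575 and 0.101).

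Stard4, a sterol carrier protein, was at 24.1, 15.7, 20.2 and 19.4 CPM in knockout and at 15.8, 12.25, 15.2 and 8.63 CPM in control proBpreB libraries, just short of a call (log2 difference 0.61, adjusted p = 0.0515). It passed without control replicate 1 or 3 (adjusted p = 0.0303 and 0.0455) or knockout replicate 2 (adjusted p = 0.0369), with a filter of 10 CPM (0.0394), in DESeq2 (0.029), in limma-voom (0.0201) and with sex as a covariate (0.0359). At the first step it fell by 0.52 in knockout mice (adjusted p = 0.0245). That call was lost without proBpreB replicate 1 or immature replicate 2, 3 or 4 (adjusted p = 0.097, 0.064, 0.0526 and 0.0674).

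At the proBpreB to immature step 8 of the 10 tested fatty acid enzymes changed in control mice, 5 higher and 3 lower, beside 24.0% of all genes higher and 25.4% lower. Scd1, a desaturase that makes monounsaturated fatty acids, was at 51.6, 48.8, 41.7 and 61.3 CPM in control proBpreB libraries. It was at 1130, 1206, 985 and 956 CPM in control immature libraries and at 1074, 1038, 983 and 915 CPM in control mature libraries. The immature mean was 21.0-fold above the proBpreB mean (log2 change 4.39, SE 0.13, adjusted p = 3.02e-20), and no change was called from immature to mature cells.

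The knockout levels of Scd1 lay at 28.6, 34.4, 29.25 and 33.9 CPM in proBpreB, at 942, 955, 1110 and 1048 CPM in immature and at 1029, 796, 1037 and 869 CPM in mature libraries. The rise was 32.1-fold (log2 change 5.00, adjusted p = 1.84e-21). In proBpreB cells every knockout library was below every control library, and the mean was 62.0% of it (log2 difference -0.69, SE 0.12, adjusted p = 0.000252), a call that held in all 17 alternatives. Of 6 mature B cell genes, 5 were called lower and 1 higher in the same comparison, with summed levels of 773 to 989.8 against 799 to 1048 CPM and none at 0 counts, and their part in the Scd1 difference was not tested. In immature and mature cells the log2 differences were -0.08 (95% interval -0.316 to 0.163) and -0.10 (95% interval -0.343 to 0.136). Scd1 and Scd2 transcripts share 4.61% and 4.01% of their 50-base stretches with other genes, mostly of their own family.

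The genotype effect on Scd1 differed between immature and proBpreB cells by 0.61 (SE 0.17, adjusted p = 0.0154) and between mature and proBpreB cells by 0.58 (SE 0.17, adjusted p = 0.0484). It was the member called higher in each of these comparisons, where the background was 4.72% and 2.27%. The first was lost without proBpreB control replicate 4 (adjusted p = 0.0519). The second was 0.0547 with the mouse as a replicate block and was also lost without 1 of several libraries. These were proBpreB control replicates 1, 2 and 4 (adjusted p = 0.0695, 0.0629 and 0.132), proBpreB knockout replicates 1, 3 and 4 (0.115, 0.0965 and 0.058), mature control replicates 2, 3 and 4 (0.0596, 0.0866 and 0.0986) and mature knockout replicates 1 and 3 (0.109 and 0.105). It was also lost without a filter on low counts (0.054) and with only the groups compared (0.0716).

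Scd2, the related desaturase, peaked in immature cells. It was at 212, 152.5, 103 and 139 CPM in control proBpreB, at 313, 339.9, 331 and 304 CPM in immature and at 110.1, 119, 96.5 and 96.0 CPM in mature libraries. The rise was 2.12-fold (log2 change 1.08, adjusted p = 1.66e-06) and the fall after it 3.06-fold (log2 change -1.61, SE 0.16, adjusted p = 4.85e-09). Levels of Scd2 in knockout mice lay at 224, 176, 178 and 177.5 CPM, then at 473, 336, 378 and 351 CPM, then at 219.5, 172, 154 and 151 CPM. All 4 knockout mature values were above all control mature values, and the mean was 1.65-fold higher (log2 difference 0.72, SE 0.16, adjusted p = 0.00166).

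Elovl5, an elongase of polyunsaturated fatty acids, was also higher in knockout mature cells. It was at 127, 128, 97.9 and 97.4 CPM in control and at 202, 152, 178 and 145 CPM in knockout mature libraries, and these ranges did not overlap. The difference was 1.505-fold (log2 difference 0.59, SE 0.12, adjusted p = 0.00117), whereas immature levels were 107 ± 3.55 and 101.6 ± 11.3 CPM. The genotype effect differed between mature and immature cells by 0.67 (SE 0.18, adjusted p = 0.0154). It rose by 0.74 in knockout mice from immature to mature cells (adjusted p = 3.97e-05). At the first step it rose by 0.44 in control (adjusted p = 0.00444) and by 0.33 in knockout mice (adjusted p = 0.0263), the latter lost without proBpreB replicate 2, 3 or 4 (adjusted p = 0.0544, 0.0609 and 0.0625) or immature replicate 1 or 4 (adjusted p = 0.0817 and 0.0654).

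Elovl6, the elongase of saturated long-chain fatty acids, fell 13.1-fold at the first step in control mice. It went from 32.9, 32.4, 42.6 and 28.5 CPM to 2.27, 2.92, 2.19 and 3.05 CPM (log2 change -3.70, SE 0.26, adjusted p = 1.9e-12). The knockout fall was 13.0-fold, from 51.8, 52.1, 60.2 and 50.7 CPM to 4.00, 2.23, 5.36 and 4.89 CPM (log2 change -3.69, adjusted p = 8.78e-13). The proBpreB values of the genotypes did not overlap, but the difference was not called (log2 difference 0.65, adjusted p = 0.0698), although it passed with only the groups compared in the fit (adjusted p = 0.00743), in DESeq2 (0.0297), in limma-voom (0.000848) and without control replicate 3 (0.0493).

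In mature cells Elovl6 was called higher in knockout mice at levels of a few CPM. It was at 5.95, 2.91, 3.06 and 4.03 CPM against 0.965, 2.26, 3.48 and 1.81 CPM in control libraries, with overlap (log2 difference 0.91, SE 0.30, adjusted p = 0.0333). The call was lost without control replicate 1, 2 or 4 (adjusted p = 0.11, 0.0515 and 0.0956) or knockout replicate 1 or 4 (adjusted p = 0.171 and 0.0545), with only the groups compared in the fit (0.199) and in limma-voom (0.0955). Among the 3 mice of each genotype with Xist counts the adjusted p was 0.41. The 7 pro-B and pre-B genes, of a stage in which Elovl6 was high, summed to 58.1 to 80.7 CPM in knockout and to 29.3 to 42.9 CPM in control mature libraries, with 3 of 7 called higher and none at 0 counts, and their part was not tested. Over all 31 members 3 were higher and 1 lower in mature cells, beside the shares of 9.69% and 6.62% of all genes.

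**Figure D3:**
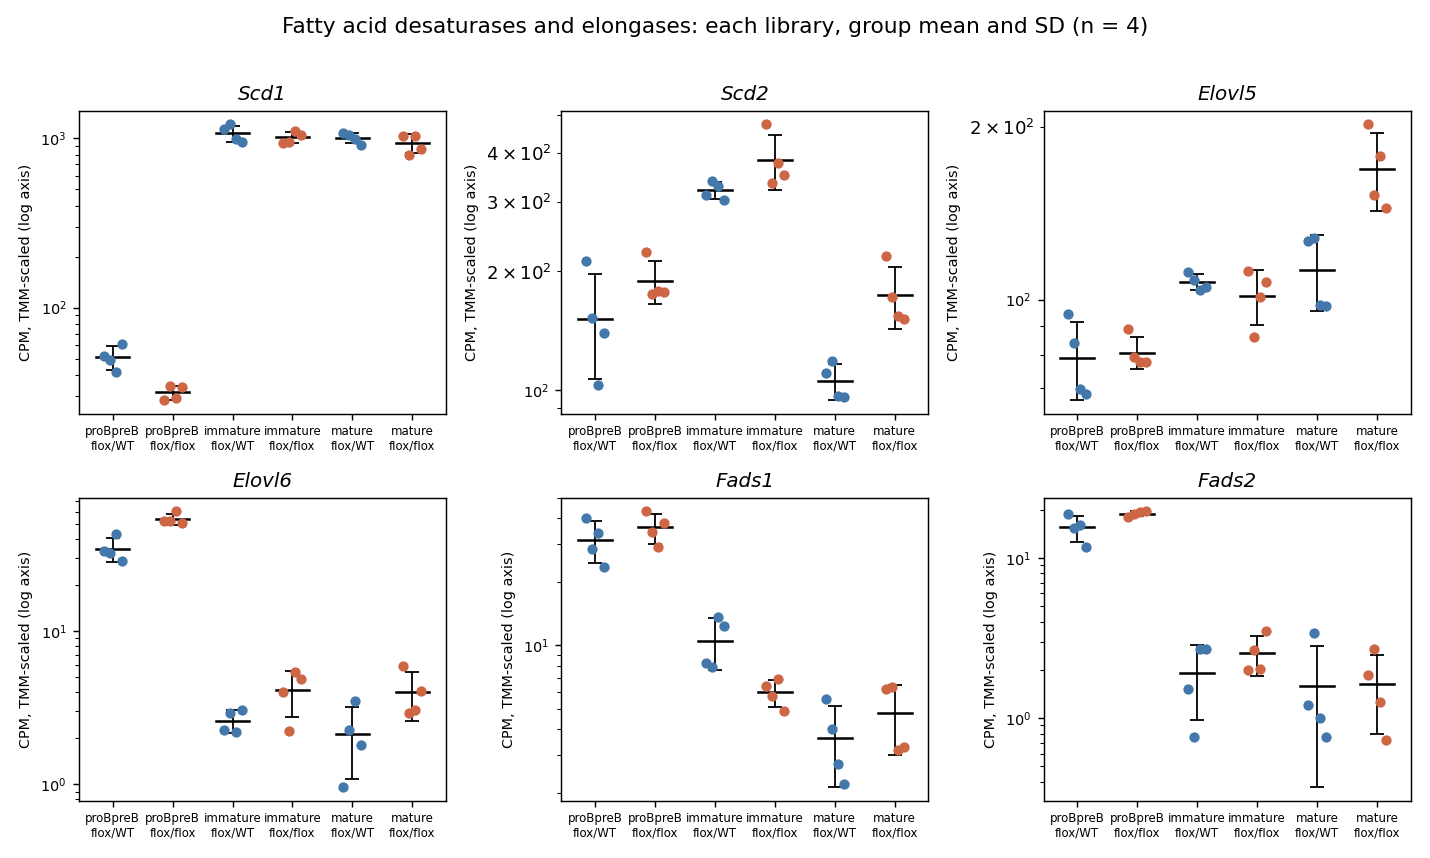
Levels (TMM-scaled CPM, logarithmic vertical axis) of fatty acid genes by population and genotype; points are libraries and bars are means ± SD over 4 mice. Scd1 lies between 28.6 and 61.3 CPM in proBpreB libraries of both genotypes and between 796 and 1206 CPM in the immature and mature ones.

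The desaturases of polyunsaturated fatty acids fell with maturation. Fads1 was at 40.1, 28.4, 34.1 and 23.6 CPM in control proBpreB, at 8.21, 7.88, 13.6 and 12.3 CPM in immature and at 5.55, 4.03, 2.74 and 2.19 CPM in mature libraries. No stage overlapped the next, and the log2 changes were -1.57 (adjusted p = 3.94e-06) and -1.56 (adjusted p = 4.5e-05). Among knockout libraries it fell from 43.0, 34.5, 29.15 and 37.7 CPM to 6.395, 5.72, 6.91 and 4.89 CPM (log2 change -2.59, adjusted p = 1.5e-09) and was at 6.165, 6.35, 3.17 and 3.30 CPM in mature libraries, with no call at that step.

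Fads1 was lower in knockout than in control immature cells (log2 difference -0.82, SE 0.26, adjusted p = 0.0234), and the groups did not overlap. That call was lost without control replicate 3 or 4 (adjusted p = 0.0971 and 0.0716) or knockout replicate 2 or 4 (adjusted p = 0.0566 and 0.076), and in limma-voom (0.0523). The genotype effect differed between mature and immature cells by 1.23 (SE 0.39, adjusted p = 0.0477). It was lost without immature control replicate 3 or 4 (adjusted p = 0.12 and 0.0953), any immature knockout replicate (0.0644, 0.0821, 0.0502 and 0.0924), mature control replicate 2, 3 or 4 (0.0575, 0.103 and 0.118) or mature knockout replicate 1 or 2 (0.116 and 0.107). It was also lost with only the groups compared in the fit (0.118) and in limma-voom (0.103).

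Fads2 fell at the first step in both genotypes. In control libraries it went from 18.8, 15.4, 16.0 and 11.8 CPM to 1.52, 0.762, 2.69 and 2.68 CPM (log2 change -2.96, SE 0.36, adjusted p = 7.2e-08). The knockout mean went from 18.9 ± 0.625 to 2.55 ± 0.711 CPM (log2 change -2.89, adjusted p = 7.83e-08). No genotype difference of Fads2 passed.

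Of the enzymes that supply acetyl-CoA, Acss2, which makes it from acetate, changed with genotype in immature cells. It was at 8.71, 8.38, 11.4 and 8.98 CPM in control and at 10.9, 15.6, 18.8 and 18.3 CPM in knockout libraries, where the lowest knockout value lay below the highest control value. The mean was 1.70-fold higher (log2 difference 0.76, SE 0.19, adjusted p = 0.0049), and the call held in all 17 alternatives. In control mice Acss2 rose to 21.1, 17.9, 20.3 and 14.0 CPM in mature cells (log2 change 0.96, adjusted p = 0.000263). It was thus the 1 member higher in knockout immature cells.

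Fasn, the fatty acid synthase, varied widely within control groups. It was at 91.9, 68.95, 33.5 and 32.6 CPM in proBpreB, at 56.7, 129, 139.7 and 125 CPM in immature and at 112.5, 116, 84.5 and 77.6 CPM in mature libraries. The knockout libraries were at 68.7, 56.6, 70.4 and 61.4 CPM, then at 62.5, 73.4, 96.8 and 91.5 CPM, then at 97.1, 89.0, 87.4 and 94.0 CPM. No genotype difference was called, and the interval in immature cells ran from -1.053 to 0.097 on the log2 scale. Without immature control replicate 1, the lowest of its group, Fasn was called lower in knockout immature cells (adjusted p = 0.0461), as was Acaca (adjusted p = 0.0388). The rise of Fasn in control mice at the first step was 0.99 (adjusted p = 0.00467), with overlapping groups, and with only the groups compared in the fit its adjusted p was 0.0625.

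Acly, which splits citrate into acetyl-CoA, was at 414, 426, 241 and 262 CPM in control proBpreB and at 402, 524, 466 and 445 CPM in immature libraries. The rise of 0.45 (adjusted p = 0.00893) was lost without proBpreB replicate 3 or 4 (adjusted p = 0.0542 and 0.0501). Genotype differences of Acly lay between -0.12 and 0.04. Acaca, acetyl-CoA carboxylase, passed in no stage or genotype comparison, and 49.1% of its 50-base stretches occur in Gm5182.

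**Figure D4:**
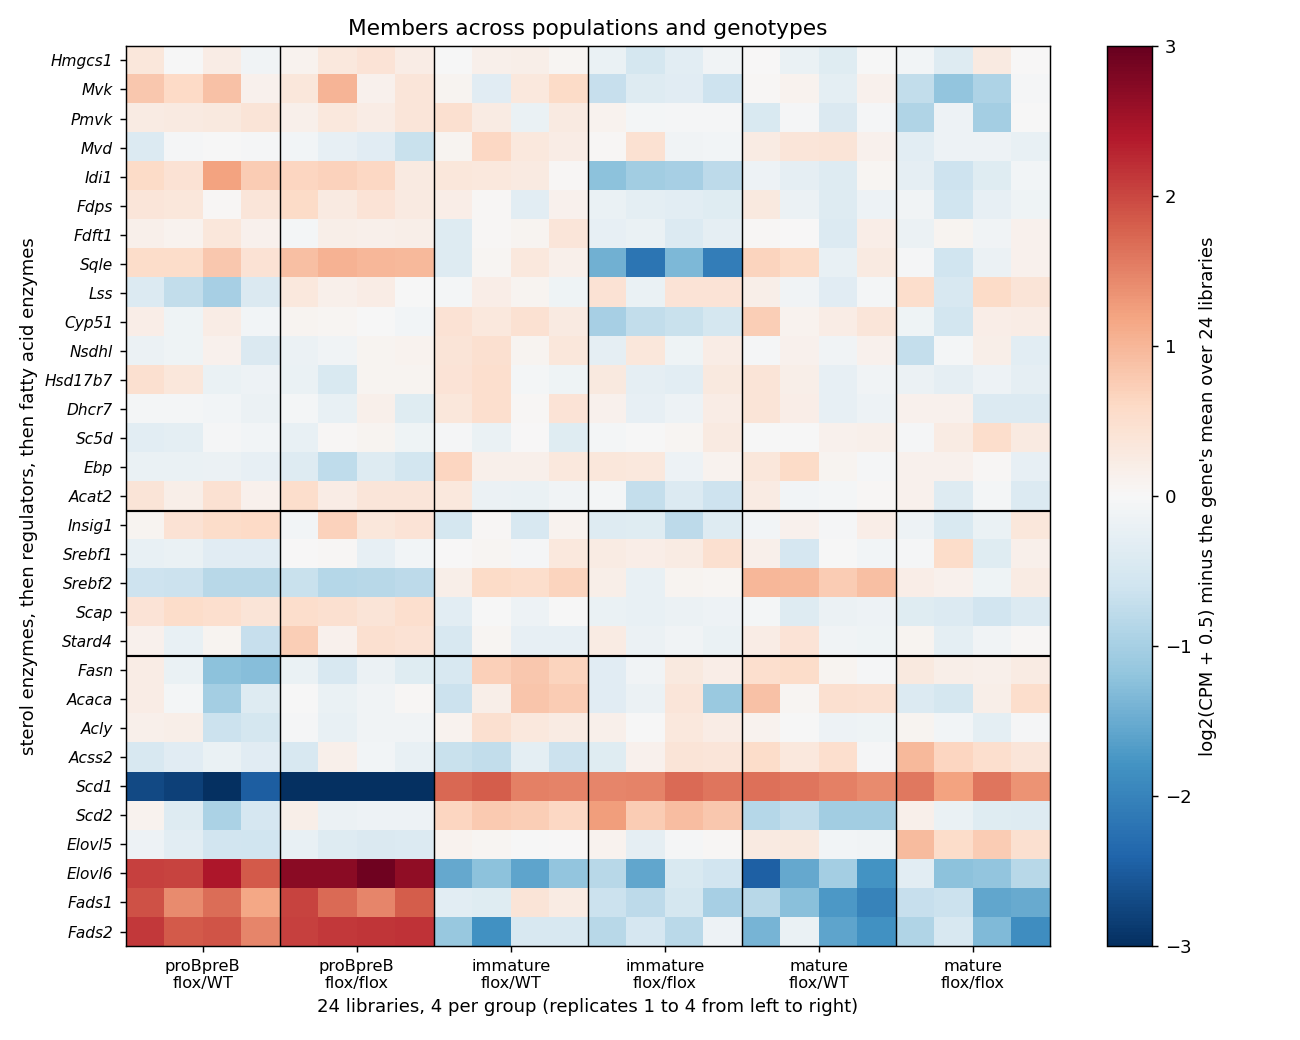
Each cell gives the log2 level of 1 member (vertical axis) in 1 of the 24 libraries (horizontal axis, by population and genotype) relative to that member's mean, from log2(CPM + 0.5), with the colour scale ending at -3 and 3. Scd1 is low in the 8 proBpreB libraries, and Elovl6, Fads1 and Fads2 are high there.

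Other genes of these pathways are read against 6.13% of all genes called between genotypes in proBpreB cells, 20.7% in immature and 16.3% in mature cells. Of 10 further sterol and isoprenoid enzymes, 0 passed in proBpreB cells, while 1 was lower in immature and 1 in mature cells. These were Dhdds, which starts dolichol synthesis, in immature cells (39.8 against 56.0 CPM, log2 difference -0.49, adjusted p = 0.00846) and Tm7sf2, a sterol reductase, in mature cells (0.903 against 2.95 CPM, log2 difference -1.71, adjusted p = 0.0103). Of 10 further genes of SREBP control, 1 was higher in each population. Insig2, the paralogue of Insig1, was higher in knockout immature cells (41.7 against 28.6 CPM, log2 difference 0.55, adjusted p = 0.00229), and Erlin2, of the endoplasmic reticulum, in proBpreB (0.43, adjusted p = 0.0134) and mature cells (0.495, adjusted p = 0.002).

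Of 7 tested genes of sterol export and storage, Soat1, which esterifies cholesterol, was higher in knockout cells of all 3 populations. Its levels were 29.25, 27.3, 27.5 and 20.1 CPM against 18.6, 17.95, 16.1 and 14.4 CPM in proBpreB libraries (log2 difference 0.63, adjusted p = 0.00556). In immature libraries they were 119, 120.1, 109 and 109.5 CPM against 99.8, 79.4, 75.6 and 63.4 CPM (0.52, adjusted p = 0.00589). In mature libraries they were 162, 133, 150.1 and 121 CPM against 119, 112, 94.7 and 84.6 CPM (0.47, adjusted p = 0.0166). In each population the groups did not overlap. Mylip, which marks lipoprotein receptors for degradation, was the other called gene, higher in knockout immature cells (0.41, adjusted p = 0.0297).

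Of 19 tested further genes of fatty acid synthesis, 2 were higher in knockout proBpreB cells, 2 higher and 2 lower in immature cells, and 2 higher and 2 lower in mature cells. Hacd1, a dehydratase of chain elongation, was higher in all 3 populations, at 10.7 ± 1.29 against 5.14 ± 0.277 CPM in proBpreB, 6.715 ± 0.9985 against 2.90 ± 1.18 CPM in immature and 2.16 ± 0.322 against 0.632 ± 0.380 CPM in mature libraries (adjusted p = 0.0135, 0.00299 and 0.000979). Its groups did not overlap in any of them. Me2, the mitochondrial malic enzyme, was 1.74-fold higher in knockout proBpreB cells (log2 difference 0.80, adjusted p = 5.37e-06). Acsl1, an acyl-CoA synthetase, was higher in immature and mature cells (0.56 and 0.51), and its relative Acsl3 was lower in both (-0.73 and -0.56).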

How the data were processed

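RNA of sorted bone marrow cells was extracted with the RNeasy Plus micro kit and turned into libraries (SMARTer Universal Low Input RNA Kit), per the labels' protocols. The authors deposited 1 table of raw read counts per gene, used here, and a normalised table, not used here. The submitters' processing notes name CASAVA, FastQC, Trim Galore, HISAT2, featureCounts, DESeq2 and the build mm10; for these, versions, settings, annotation and strand option were not given in the sources used here. The number at the start of each sample title linked it to its count column, and 0 columns belonged to no sample.

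In R 4.3.3, genes were filtered with edgeR 4.0.16 (filterByExpr over the 6 groups), scaled by TMM and tested with the robust quasi-likelihood test in 1 fit of 6 group means with 18 residual degrees of freedom. Benjamini-Hochberg adjustment ran over the 12850 genes tested separately for the 10 comparisons, with 0.05 as threshold. The standard error of a log2 difference was its size divided by the square root of F, and fold differences are ratios of mean CPM. Vhl was tested with a two-sided exact permutation test on log2 CPM. The fit was tested on simulated data with 200 changed genes.

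Alternatives were DESeq2 1.42.0, limma 3.58.1 with voom and a random effect of mouse, DESeq2 size factors in edgeR, other filters, fewer groups in the fit, blocks and leaving out each library. A sex covariate and a fit restricted to mice with Xist counts were chosen after seeing the data, which held 1 male and 3 female mice per genotype by expressed genes. Depth ran from 7850186 to 11863949 counts. Limits from 3 counts cover counting error only, since PCR copies were not marked. The repeat check compared libraries within each group and found none deposited again there. Libraries of different groups were not compared in it.

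The labels give the host of each library, so stage comparisons could pair by animal. The main fit had no term for the mouse, and its stage tests were unpaired. A block on the mouse was run as an alternative. Deviations of libraries from the same mouse correlated at 0.013 to 0.311 over 24 pairs and 5000 genes, and 22 pairs were best matched to their own mouse. Across genotypes the labels link libraries by a replicate number only, and what else libraries of the same number share was not tested. Per-library values are given for members past the threshold in order of adjusted p, for Srebf1, Srebf2, Scap, Insig1, Sqle, Fasn, Scd1 and Scd2 throughout, and up to 4 genes of each other list may be named. The members and lists were chosen with earlier results of these data known. Sharing of 50-base stretches was read from GENCODE M21 transcripts (GRCm38), and exonic length from its gene models.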

Additional observations from a re-analysis of the deposited data

Results flagged for a closer look

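In 10 of the 186 groups of 4 libraries tested over the members, 1 library stood apart from the other 3 by more than Dixon's critical value, which chance passes in about 1 in 20 groups. Among sterol enzymes, control proBpreB replicate 1 was at 8.37 CPM for Mvd (others 10.9 to 11.2 CPM) and control proBpreB replicate 3 at 32.8 CPM for Fdps (others 41.1 to 41.8 CPM). Knockout proBpreB replicate 1 was at 24.75 CPM for Fdft1 (others 28.8 to 29.1 CPM), knockout immature replicate 2 at 11.7 CPM for Lss (others 18.0 to 18.4 CPM) and control immature replicate 1 at 83.9 CPM for Acat2 (others 58.9 to 63.0 CPM). Knockout immature replicate 3 was at 12.9 CPM for Insig1 (others 17.2 to 17.4 CPM). Of the fatty acid enzymes, knockout proBpreB replicate 1 was at 224 CPM for Scd2 (others 176 to 178 CPM) and at 88.7 CPM for Elovl5 (others 77.65 to 79.2 CPM). Knockout proBpreB replicate 3 was at 60.2 CPM for Elovl6 (others 50.7 to 52.1 CPM), and control mature replicate 2 at 3.40 CPM for Fads2 (others 0.762 to 1.21 CPM).

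The genotype effect differed between populations in 11 cases by edgeR's test of the difference. From proBpreB to immature cells it shifted by -1.06 for Idi1, -2.25 for Sqle, -1.06 for Cyp51 and 0.61 for Scd1 on the log2 scale. From immature to mature cells it shifted by 1.13 for Idi1, 1.33 for Sqle, 0.70 for Cyp51, 0.67 for Elovl5 and 1.23 for Fads1. Between mature and proBpreB cells the effect on Srebf2 differed by -0.73 and that on Scd1 by 0.58.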

How the results depend on the processing

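Of 74 member calls over the 10 comparisons, 54 held under every alternative run for them, and 0 of 5570 recomputed member values reversed a called direction. The count of members called in proBpreB cells went from 2 to 4 with DESeq2 and to 4 with limma-voom. For the immature to mature step in knockout mice it went from 5 to 8 with limma-voom. For the difference of genotype effects between mature and immature cells it went from 5 to 3 with only the groups compared in the fit. Between mature and proBpreB cells it went from 2 to 1 without a filter, to 1 with only the groups compared and to 4 with DESeq2. The cause of these shifts was not tested.

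With 1 library left out at a time, counts ranged from 2 to 4 in proBpreB, 5 to 10 in immature and 3 to 6 in mature cells between genotypes. They ranged from 15 to 19 and 17 to 20 for the proBpreB to immature step in control and knockout mice, and from 4 to 5 and 5 to 7 for the immature to mature step. For differences of genotype effects they ranged from 3 to 6 (immature minus proBpreB), 3 to 5 (mature minus immature) and 1 to 3 (mature minus proBpreB).

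With the mouse as a replicate block the stage steps gave 20 and 5 members in control and 21 and 5 in knockout mice, and the differences gave 6, 5 and 2. Beyond the calls on Idi1 and Scd1 given above, Acat2 (adjusted p = 0.0125) passed at the first control step, Acly (0.0441) at the second, Acat2 (0.0325) and Fads1 (0.0446) for immature minus proBpreB, and Elovl5 (0.0264) for mature minus proBpreB. Across genotypes the labels give libraries only a shared replicate number. Deviations of libraries with the same number correlated at -0.043 to 0.389 over 12 pairs, the highest for proBpreB replicate 1, and 7 pairs matched best. What these libraries share beyond the number was not tested. A block on replicate numbers gave 3, 8 and 6 members in proBpreB, immature and mature cells. Members at a few CPM, such as Elovl6 after the proBpreB stage, are limited by depth.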
